A study of Mus musculus with 4 samples.

Results

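The genes described here are 8 members of the complement system that tumour-infiltrating leukocytes can make: the chains of C1q (C1qa, C1qb and C1qc), the component C3, the alternative-pathway proteins factor B (Cfb) and properdin (Cfp), and the anaphylatoxin receptors C3ar1 and C5ar1. They were taken by symbol from the 32285 genes of the deposited matrices, and all 8 were present. Single-cell RNA-seq had been made from CD45+ cells sorted out of subcutaneous tumours of MC38, a mouse colon carcinoma line, with 100000 cells injected per mouse. There were 2 libraries from Trim25 cKO mice (cKO-1 and cKO-2) and 2 from WT mice (WT-1 and WT-2), and the text on age gives 8 weeks. Trim25 encodes a ubiquitin ligase of antiviral signalling; the series title places its loss in T cells, while no source used here gives the Cre driver, the deleted exons or the strain. No label ties the 2 libraries of a genotype to different mice, so each p-value reflects the spread between these libraries, which may be technical.

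C1q binds antibody, dying cells and other surfaces and starts the classical pathway, which leads to cleavage of C3. Factor B joins cleaved C3 to form the convertase of the alternative pathway, and properdin holds that convertase together. The small fragments C3a and C5a act on myeloid cells through C3ar1 and C5ar1. In most tissues the liver supplies C3 and factor B to plasma, whereas C1q is known as a product of macrophages and related myeloid cells.

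All 8 genes lie on the minus strand of their chromosomes in the mouse genome (GENCODE vM21 on GRCm38). The C1q genes are neighbours on chromosome 4 within 18675 bases, at chr4:136880129-136886187 for C1qb, chr4:136889804-136893065 for C1qc and chr4:136895917-136898803 for C1qa, with 3616 bases between C1qb and C1qc and 2851 bases between C1qc and C1qa. Both C3 (chr17:57203970-57228136) and Cfb (chr17:34856374-34862518) are on chromosome 17, C3ar1 is at chr6:122847138-122856161, C5ar1 at chr7:16246743-16259540 and Cfp at chrX:20925454-20931555. RefSeq promoter windows (GRCm38.p6, 250 bases before to 50 after the start) were matched for 6 of the 8 genes. The windows of C1qb (chr4:136886151-136886450), C1qc (chr4:136892865-136893164), C3 (chr17:57228087-57228386) and C3ar1 (chr6:122856108-122856407), all on the minus strand, are shown. For these genes the ranges over libraries in macrophages and in monocytes did not overlap. This held too for Cfp, whose window was matched but is not shown. The C5ar1 window was also matched and is not shown. The C5ar1 ranges overlapped, at 75.8 to 89.4 CPM in macrophages and 65.4 to 76.0 CPM in monocytes. C1qa and Cfb were not matched. Capitals mark matches, on either strand, to the motifs named below.
C1qb: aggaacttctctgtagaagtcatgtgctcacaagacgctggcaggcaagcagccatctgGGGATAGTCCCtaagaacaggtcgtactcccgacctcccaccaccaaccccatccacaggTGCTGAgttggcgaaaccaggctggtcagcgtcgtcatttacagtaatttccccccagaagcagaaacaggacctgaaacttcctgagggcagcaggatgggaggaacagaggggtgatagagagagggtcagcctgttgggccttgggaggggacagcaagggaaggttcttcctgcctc
C1qc: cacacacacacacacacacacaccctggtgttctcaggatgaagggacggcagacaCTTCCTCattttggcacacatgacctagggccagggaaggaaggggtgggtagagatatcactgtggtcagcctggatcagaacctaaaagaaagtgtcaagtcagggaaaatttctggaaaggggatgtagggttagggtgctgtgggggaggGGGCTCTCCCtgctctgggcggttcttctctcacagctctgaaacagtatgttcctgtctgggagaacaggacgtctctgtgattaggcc
C3: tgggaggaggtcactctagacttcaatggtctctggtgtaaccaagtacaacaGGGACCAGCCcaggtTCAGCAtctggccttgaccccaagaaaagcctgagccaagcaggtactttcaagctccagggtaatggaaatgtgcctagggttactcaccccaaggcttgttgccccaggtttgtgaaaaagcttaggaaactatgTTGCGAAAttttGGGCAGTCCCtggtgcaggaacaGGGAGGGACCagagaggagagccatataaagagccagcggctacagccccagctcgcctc
C3ar1: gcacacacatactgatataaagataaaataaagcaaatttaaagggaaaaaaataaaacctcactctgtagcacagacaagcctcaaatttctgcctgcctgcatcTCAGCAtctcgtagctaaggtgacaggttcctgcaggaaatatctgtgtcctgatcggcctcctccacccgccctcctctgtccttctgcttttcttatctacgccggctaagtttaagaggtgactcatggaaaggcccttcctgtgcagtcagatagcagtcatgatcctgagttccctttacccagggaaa
The MAF motif TGCTGA was present in the windows of C1qb, C3, C3ar1 and C5ar1, and in 19.5% of all 32851 windows. The NF-kappaB motif (GGGA, then 4 free bases, then CC) was present in C1qb, C1qc and C3 (20.7% of all windows); in C1qb its matches on the 2 strands overlap. The PU.1 motif GAGGAAG was present in C1qc (13.6% of all windows) and the C/EBP motif TTGCNNAA in C3 (10.8% of all windows). The interferon-response motif (GAAA, then 2 free bases, then GAAA; 3.44% of all windows) and the STAT motif TTCNNNGAA (8.30%) were in none of the 6 windows, and the Cfp window held none of these motifs. A match is a description of the letters and not of a bound site.

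The libraries held 96751399 to 127449324 unique molecular identifiers (UMIs, each counting 1 captured RNA molecule) in 8533 and 9654 cell barcodes for cKO and in 10385 and 12318 for WT, and 39906 cells were kept in all. Any 2 libraries shared 42 to 59 barcodes. Clusters were named by marker genes that exclude complement genes, and UMIs were summed per library and class and scaled to counts per 1000000 UMIs of that sum (CPM). Macrophages were a larger share of cKO libraries (21.8% and 17.2% of kept cells) than of WT libraries (14.1% and 11.9%), and monocytes were 19.4% and 25.4% of cKO and 29.2% and 24.5% of WT libraries. A UMI of Ptprc, which encodes CD45, was found in 84.6% of macrophages and in 66.4% of the cells of the fibroblast class. That class, called fibroblasts below, had 5 of 8 fibroblast markers detected and a median of 1081.5 UMIs per cell. Col6a1, Brinp3 and Cntn3 led it. Its name is uncertain, and whether it holds tumour cells was not tested. Trim25 in T cells was at 50.7 and 47.6 CPM in cKO libraries, against 63.3 and 63.4 CPM in WT libraries; it was at 148 and 157 CPM in cKO macrophages and at 151 and 155 CPM in WT macrophages. Reads from the 3' end need not cover the deleted exons, so these values do not check the deletion itself.

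The C1q chains were highest in macrophages. C1qa, the first chain, was at 938 and 1050.5 CPM in cKO macrophages and at 909 and 989 CPM in WT macrophages. C1qb was at 1627 and 1889.9 CPM in cKO macrophages and at 1536 and 1699 CPM in WT macrophages. C1qc was at 1584 and 1861.5 CPM in cKO macrophages and at 1707 and 1744 CPM in WT macrophages. The genotypes overlapped in each chain, and no other class that held 20 or more cells of each library reached the lowest macrophage value. The next class for C1qa, neutrophils, averaged 342 ± 127 CPM (SD over the 4 libraries) from only 28 to 91 cells per library; their summed macrophage markers, 11 of 12 detected, were at 1869.5 and 2491 CPM in cKO and at 1994 and 1617 CPM in WT, and the part of those markers in the neutrophil value was not tested. T cells (126 ± 28.9 CPM of C1qa) and monocytes (106 ± 16 CPM) followed and overlapped each other. Macrophages supplied 60.8 ± 1.9% of all C1qa UMIs of cKO libraries and 54.2 ± 5.3% of those of WT libraries (SD, n = 2 each).

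**Figure D1:**
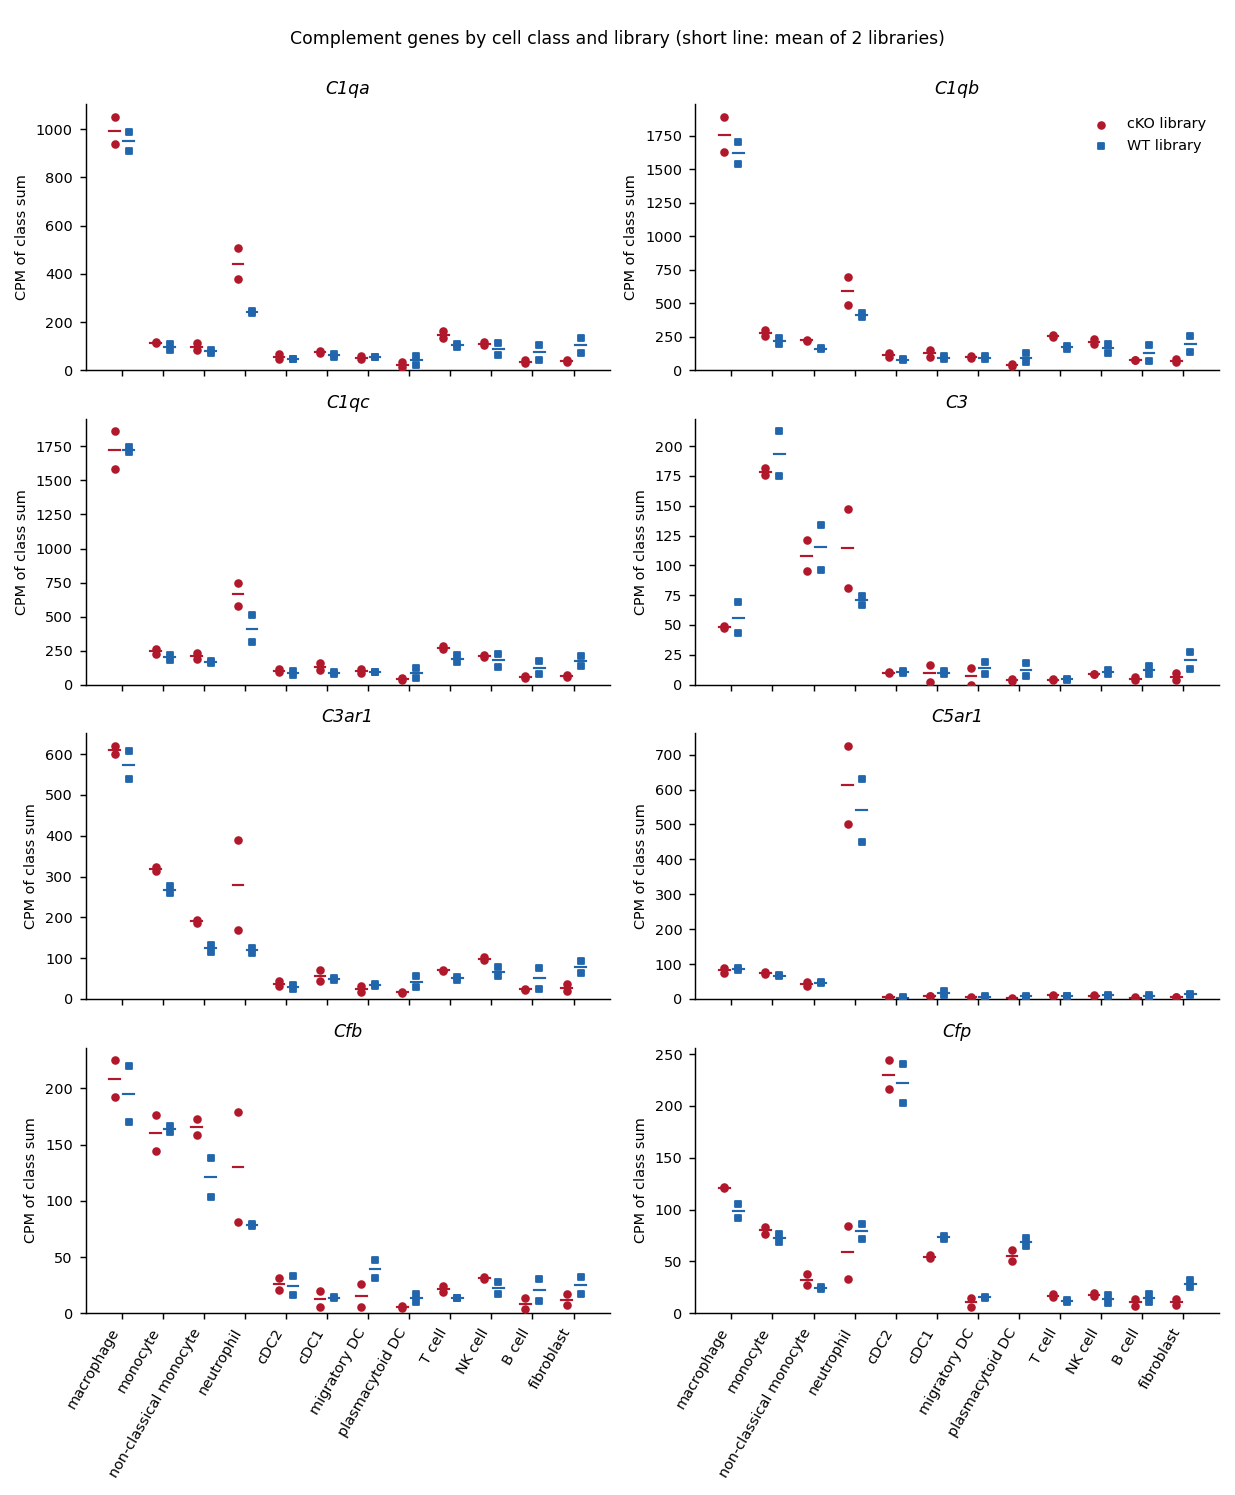
CPM of the 8 complement genes (vertical axis) in 12 cell classes (horizontal axis), with cKO libraries as circles, WT libraries as squares and a short line at the mean of 2 libraries. C1q chains and C3ar1 are highest in macrophages, C3 in monocytes, C5ar1 in neutrophils and Cfp in cDC2, in each library.

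The 3 chains were found together in the same cells. A UMI of all 3 chains was present in 77.1 ± 0.39% of macrophages, in 24.4 ± 4.4% of T cells, in 19.1% of monocytes and in 1.97 ± 0.29% of B cells (mean and SD over the 4 libraries). Cells differ in depth, with a median of 5344.5 UMIs per macrophage, 11231.5 per monocyte, 6528 per T cell and 3202 per B cell. Cells with 1000 or more UMIs were therefore thinned to 1000 UMIs, and shallower cells were left out of all shares at that depth. C1qa was then detected in 58.2% of cKO and 57.2% of WT macrophages and in 8.60% of cKO and 7.56% of WT monocytes. It was detected in 11.6% of cKO and 9.66% of WT T cells, and in 3.50% of cKO and 3.47% of WT B cells. Without thinning, over all cells, C1qa was detected in 81.5% and 81.9% of macrophages and in 34.6% and 30.5% of monocytes (cKO and WT). In T cells it was 40.1% and 35.8%, and in B cells 10.5% and 11.04%. At the thinned depth C1qa detection in monocytes lay below that in T cells and above that in B cells, both of which should lack C1q, and it is not read as expression. C1qa made up 22.2% of the C1q UMIs of macrophages and 22.1% of those of T cells, and C1qc 39.4% and 40.5%. In monocytes the shares were 18.4% for C1qa, 42.9% for C1qb and 38.7% for C1qc.

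Within macrophages the C1q level differed between clusters by a wide margin. The cluster led by Mmp12, Pf4 and Zmynd15 (P2) had a summed C1q level of 11690 ± 652 CPM, the cluster led by Cadm1, Itga9 and Ch25h (P0) had 3786 ± 322 CPM, and the cluster led by Mmp12, Gpnmb and Egln3 (P11) had 1879 ± 220 CPM (SD over the 4 libraries). The ranges over libraries did not overlap. P2 cells were shallow, at a median of 2226 UMIs against 13523 in P0 and 10478 in P11, so P2 held 30.3 C1q UMIs per cell and P0 held 55.9; the order of P0 and P2 turns round between the level per CPM and the UMIs per cell. The chain mix also differed: C1qa was 27.0 ± 0.56% of C1q UMIs in P2, 20.4 ± 0.27% in P0 and 18.1 ± 1.1% in P11. P2 made up 39.6 ± 4.2% of cKO macrophages and 40.1 ± 0.15% of WT macrophages (SD, n = 2 each). Monocyte clusters had 181 to 1211 CPM of summed C1q, lowest in the cluster led by Plcb1, F13a1 and Chil3 (P5) and highest in the cluster led by Chil3, Fn1 and Msr1 (P7).

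**Figure D2:**
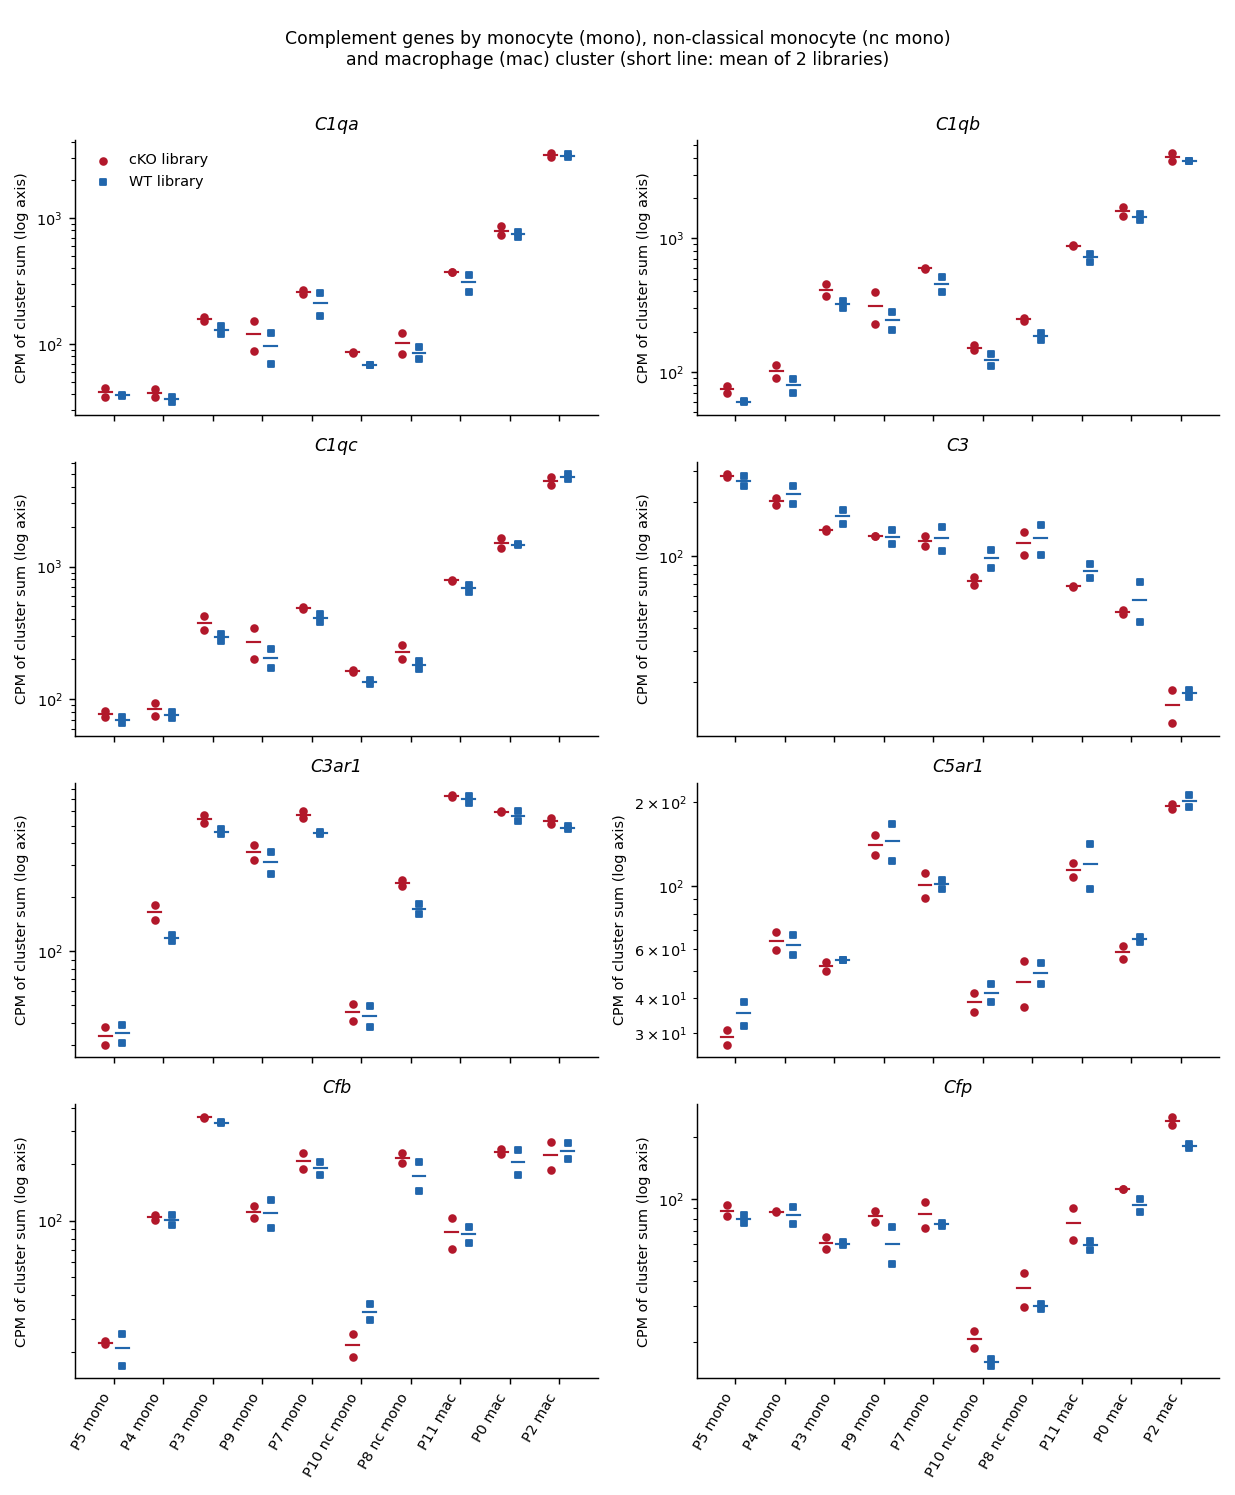
CPM on a log axis of the 8 genes in 10 clusters of monocytes, non-classical monocytes and macrophages, with cKO libraries as circles, WT libraries as squares and a short line at the mean of 2 libraries. The C1q chains are highest in P2 and C3 is lowest there, while Cfb is highest in P3.

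C3, the component that every pathway cleaves, had the opposite placement. It was at 175 and 182 CPM in cKO monocytes and at 212 and 175 CPM in WT monocytes. In macrophages it was at 47.3 and 49.4 CPM in cKO and at 68.9 and 43.5 CPM in WT. Every monocyte value was above every macrophage value. Non-classical monocytes (112 ± 19 CPM over the 4 libraries) and neutrophils (92.4 CPM) lay between them on average. Monocytes supplied 66.4 ± 2.9% of C3 UMIs in cKO libraries and 68.8 ± 4.3% in WT libraries, and macrophages 12.7% and 8.05% (cKO and WT). A C3 UMI was found in 67.7% of cKO and 65.2% of WT monocytes, against 3.28% of cKO and 3.18% of WT T cells; at 1000 UMIs per cell it was 16.5% and 16.9% of monocytes and 0.247% and 0.530% of T cells (cKO and WT). Among clusters C3 averaged 272 CPM in P5, 212 CPM in the monocyte cluster led by Vcan, Plcb1 and Chil3 (P4) and 16.2 CPM in P2.

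The receptors differed from each other in their cells. C3ar1, the receptor of C3a, was at 621 and 601 CPM in cKO macrophages and at 609 and 539 CPM in WT macrophages. In monocytes it was at 323 and 314 CPM in cKO and at 259 and 276 CPM in WT. All macrophage values were above all monocyte values, and non-classical monocytes averaged 157 CPM. C5ar1, the receptor of C5a, was at 501 and 725 CPM in cKO neutrophils and at 631 and 451 CPM in WT neutrophils. It averaged 84.1 ± 6.3 CPM in macrophages, 70.5 CPM in monocytes and 45.0 CPM in non-classical monocytes. A C5ar1 UMI was found in 73.8% of cKO and 69.7% of WT neutrophils, and in 39.5% of cKO and 37.1% of WT macrophages. Neutrophils were few, and monocytes supplied 41.3% of C5ar1 UMIs in cKO and 46.4% in WT libraries. UMIs of both receptors were found in the same cell for 34.7% and 31.2% of cKO macrophages and for 31.1% and 29.0% of WT macrophages. In monocytes it was 26.7% and 24.3% in cKO and 19.6% and 19.97% in WT, and monocytes with UMIs of both C3 and C3ar1 were 37.0% and 33.2% in cKO and 30.4% and 26.7% in WT.

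Factor B had a broad placement over the monocyte and macrophage classes. Cfb was at 192 and 225 CPM in cKO macrophages and at 220 and 171 CPM in WT macrophages. In monocytes it was at 145 and 176 CPM in cKO and at 167 and 161 CPM in WT. These ranges overlapped, and so did those of non-classical monocytes (143 CPM on average) and neutrophils (104 CPM). The clusters differed more than the classes. Cfb was highest in the monocyte cluster led by Rsad2, Slfn4 and Cmpk2 (P3), interferon-induced genes, at 353 and 358 CPM in cKO and at 334 and 330 CPM in WT. As a mean over the 4 libraries it was lowest in P5, at 22.0 and 22.8 CPM in cKO and at 16.8 and 24.9 CPM in WT, and the cluster led by Adgre4, Ear2 and Cd36 (P10) overlapped it, at 24.9 and 18.7 CPM in cKO and at 29.7 and 35.9 CPM in WT.

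Properdin was highest in cDC2, a dendritic cell type that presents antigen to helper T cells. Cfp was at 216 and 244 CPM in cKO cDC2 and at 203 and 241 CPM in WT cDC2. Macrophages followed at 122 and 120.45 CPM in cKO and at 91.7 and 106 CPM in WT, below every cDC2 value. A Cfp UMI was found in 73.7% of cKO and 71.0% of WT cDC2. Monocytes averaged 76.4 CPM, cDC1 63.9 CPM and plasmacytoid dendritic cells 62.1 CPM, and their ranges overlapped. UMIs of Cfp were spread over several classes: cDC2 gave 25.8% and macrophages 27.0% of them in cKO libraries, against 26.8% and 17.6% in WT libraries, and monocytes gave 25.3% in cKO and 32.1% in WT libraries.

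The other members were also counted against C1q of the same class. Macrophages had 13.6 ± 1.4 UMIs of C3ar1 per 100 C1q UMIs, T cells 10.6 ± 0.31 and B cells 14.5 ± 1.2, against 51.4 ± 4.6 in monocytes (SD over the 4 libraries). For C3 the values were 1.202 ± 0.31 in macrophages, 0.798 ± 0.23 in T cells and 4.10 ± 3.0 in B cells, against 33.3 ± 8.7 in monocytes. In NK cells they were 17.2 ± 2.0 for C3ar1 and 2.08 ± 0.52 for C3. For both genes the T cell ratio was closer to the macrophage ratio than to the monocyte ratio, and the origin of these UMIs was not tested. Cfp reached 97.0 ± 24 UMIs per 100 C1q UMIs in cDC2 and 48.3 ± 24 in plasmacytoid dendritic cells, against 2.51 ± 0.31 in macrophages. C5ar1 reached 44.3 ± 13 in neutrophils, against 1.93 ± 0.27 in macrophages.

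**Figure D3:**
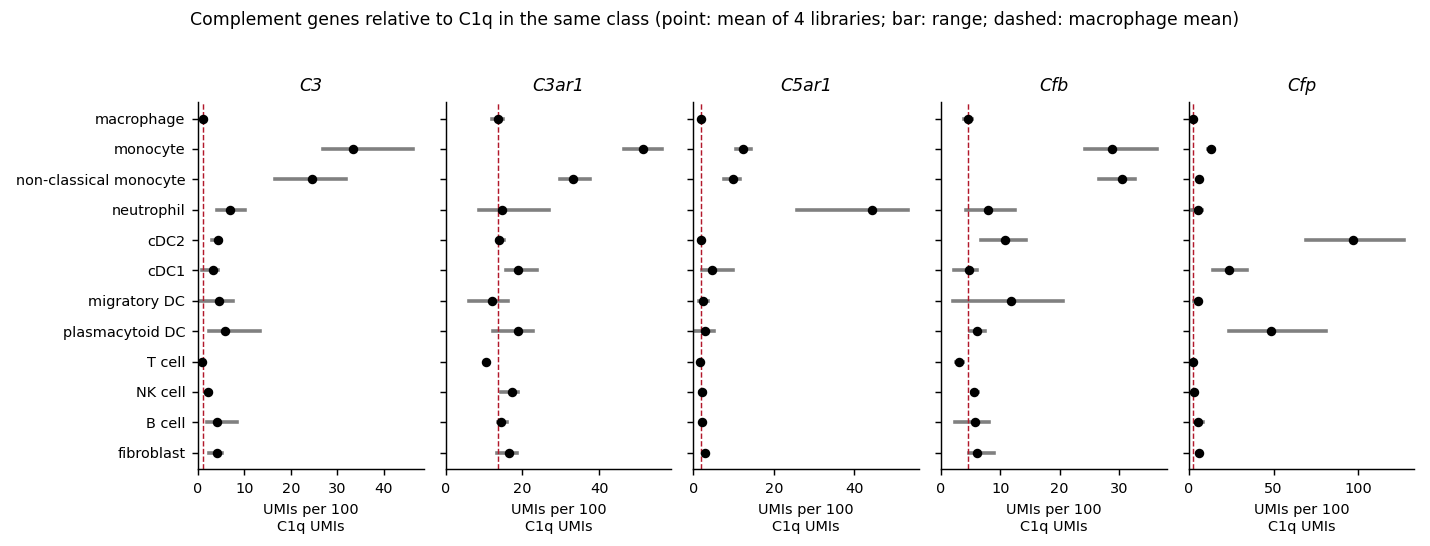
UMIs of C3, C3ar1, C5ar1, Cfb and Cfp per 100 C1q UMIs (horizontal axis) by class (vertical axis), with points at the mean of 4 libraries, bars over their range and a dashed line at the macrophage mean. T cells lie near the line for C3, C3ar1, C5ar1 and Cfp, and monocytes lie to the right of it for all 5 genes.

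Across the 10 monocyte and macrophage clusters C3 ran against C1q. On the log2 scale Pearson's r was -0.91 and Spearman's rho -0.79 between C3 and summed C1q. C3ar1 ran with C1q (r 0.75, rho 0.90), and Cfb ran with the summed level of 10 interferon-response genes, a list chosen after values were seen (r 0.67, rho 0.71). That interferon sum was 23029 CPM in P3 and 1238 CPM in P5. P4 stood apart from the relation: its interferon sum was 15001 CPM while its Cfb was at 103 CPM. Cfb also ran with C3ar1 (r 0.84, rho 0.54) and with summed C1q (r 0.60, rho 0.68), so the relation was not particular to interferon-response genes. The clusters share libraries and P2 differs in depth, so these values describe 10 points and carry no test.

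**Figure D4:**
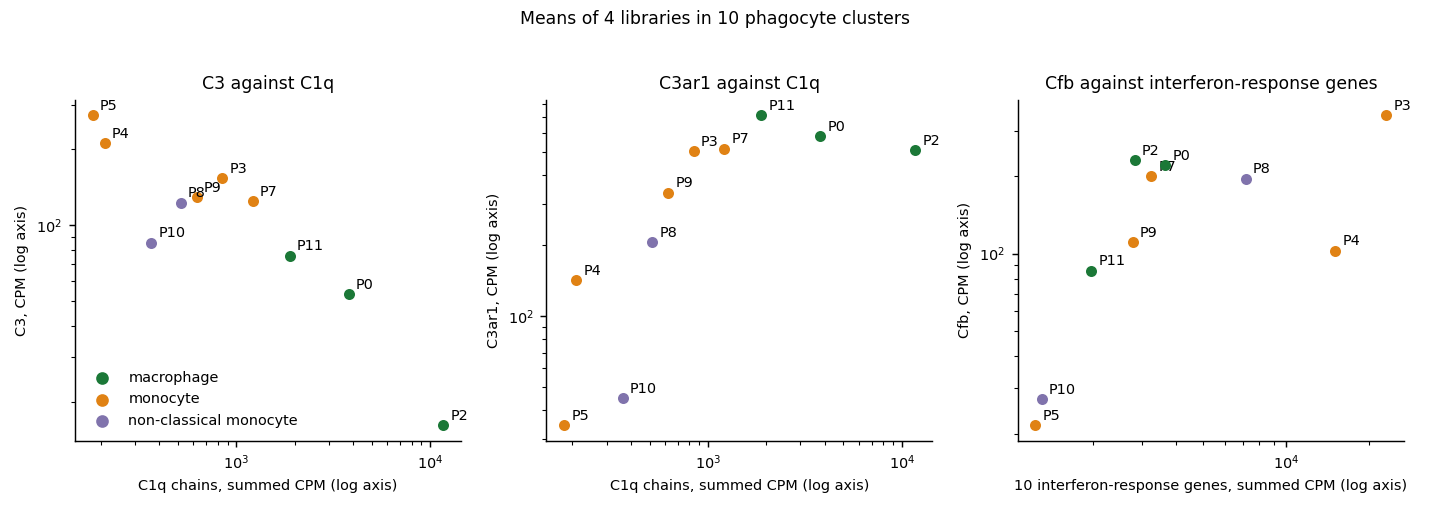
Means of 4 libraries in 10 clusters on log axes: C3 against summed C1q, C3ar1 against summed C1q, and Cfb against the sum of 10 interferon-response genes, all in CPM and coloured by class. C3 is highest in P5 and lowest in P2, and Cfb is highest in P3.

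Genes with the most similar placement over the 48 sums of 12 classes and 4 libraries were looked up among 8384 genes. For the mean of the C1q chains they were Ms4a7 (r 0.94), Pf4 (0.91), Ch25h (0.90), Tmem119 (0.89) and Ntpcr (0.88). C3 was closest to Lyz2 (0.95), which encodes lysozyme, Klra2 (0.94) and F10 (0.94), which encodes coagulation factor X. Genes similar to C3ar1 included Trem2 (0.93), a lipid receptor of macrophages, and Clec4a2 (0.93). C5ar1 was closest to Dmxl2 (0.95), Clec4d (0.95) and Csf3r (0.93), the receptor of the neutrophil growth factor G-CSF. Those similar to Cfb included the Fc receptor genes Fcgr3 (0.94) and Fcgr4 (0.93). Cfp had lower values, with Gsn at 0.87, Atp6ap2 at 0.86 and Tmem219 at 0.85. Ms4a7, Pf4, Trem2 and Csf3r were among the markers that named the classes.

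Whether loss of Trim25 went with other complement levels was tested between 2 cKO and 2 WT libraries within each class. In macrophages none of the 8 genes passed (edgeR quasi-likelihood test, Benjamini-Hochberg adjusted p under 0.05), where 0% of 12808 genes were called, and DESeq2 called none of the 8. An unadjusted p under 0.05 by edgeR was found for 640 of the 12808 genes and for 1 member. That member was Cfp, above WT in 4 of 4 library pairs, with a log2 fold change of 0.29 ± 0.10 (SE), p 0.0240 and adjusted p 0.963. The C1q chains differed by 0.07 ± 0.11 for C1qa, 0.12 ± 0.12 for C1qb and -0.00 ± 0.12 for C1qc on the log2 scale. C3 differed by -0.22 ± 0.19, C3ar1 by 0.09 ± 0.10, C5ar1 by -0.07 ± 0.11 and Cfb by 0.10 ± 0.14. The median of the 8 members was 0.08, against 0.00 over all genes tested. A p that misses the threshold does not show that the levels were equal.

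In monocytes none of the 8 members passed either, where edgeR called 0.00717% of 13948 genes, and DESeq2 called none of the 8. By edgeR 2 members and 630 of the 13948 genes had an unadjusted p under 0.05. The C1qb level of cKO monocytes was 257 and 298 CPM, and that of WT monocytes 193 and 241 CPM. The C3ar1 level of cKO monocytes was 323 and 314 CPM, and that of WT monocytes 259 and 276 CPM. In both genes each cKO value was above each WT value. The log2 fold change of C1qb was 0.37 ± 0.14 (SE, p 0.0344) and that of C3ar1 was 0.26 ± 0.10 (p 0.0319), with an adjusted p of 0.999 for both. C3 differed by -0.10 ± 0.12 and Cfb by -0.02 ± 0.13. Summed macrophage markers in the same monocytes were at 1549 and 1667 CPM in cKO and at 1489 and 1555 CPM in WT, and the monocyte cluster led by Thbs1, Chil3 and Fn1 (P9) made up 16.2 ± 1.7% of cKO and 7.23 ± 1.1% of WT monocytes. The part of either in the monocyte values was not tested.

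The difference of the cKO effect between macrophages and monocytes passed for none of the members (0.00721% of 13863 genes called by edgeR). By the same test 3 members and 781 of the 13863 genes had an unadjusted p under 0.05. C1qc had the lowest p, at -0.30 ± 0.07 for the macrophage minus the monocyte log2 fold change (adjusted p 0.524). In the 10 clusters, 13 of 80 member tests had an unadjusted p under 0.05 and none passed (edgeR called 0.0353% of genes in P2, 0.0278% in P5, 0.0121% in P10 and 0% in each of the others). Over all genes the lowest share with such a p was 389 of 9589, in the cluster led by Ear2, Adgre4 and Ace (P8). The highest was 578 of 8499, in P2. The member tests with the lowest p were C3ar1 in P4 (0.51 ± 0.13, adjusted p 0.707) and Cfp in P2 (0.46 ± 0.13, adjusted p 0.404).

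Over the 12 classes, edgeR passed 0 of 94 member tests, where it called 0% to 0.372% of genes per class. DESeq2 passed 8, where it called 0 to 215 genes per class. By edgeR 41 member tests had an unadjusted p under 0.05. Over all genes the share with such a p ran from 260 of 8630 in cDC1 to 1492 of 11551 in fibroblasts. Within a class most members lay on the same side of 0, and that side differed between classes. In T cells, where 0.0857% of 12830 genes were called, 7 of 8 members were above 0 with a median log2 fold change of 0.51. C1qb in T cells was at 259.9 and 251 CPM in cKO and at 182 and 161 CPM in WT (log2 fold change 0.59 ± 0.10, adjusted p 0.0603), and it passed with DESeq2 (adjusted p 0.000121) and with a replicate block (0.0125). With 1 library left out it passed without WT-1 (0.00128) or WT-2 (0.0238) and did not pass without cKO-1 or cKO-2; each of these fits leaves 1 library in a genotype, which is assumed to vary like the pair in the other. In fibroblasts (0% of 11551 genes called) and plasmacytoid dendritic cells (0.372% of 9665) all 8 members were below 0, with medians of -1.34 and -1.38, and in B cells (0.163% of 8610) 7 of 7 tested were below 0, with a median of -1.03. C1qc in the fibroblast class was at 55.1 and 71.1 CPM in cKO and at 213 and 136 CPM in WT (-1.35 ± 0.24, adjusted p 0.153 with edgeR and 0.000661 with DESeq2). Each fibroblast was also scaled to the same total and weighted equally. C1qc then averaged 3.40 and 3.19 in cKO and 4.02 and 3.99 in WT, a smaller gap. These are scaled values and not UMIs counted per cell. The ranges of C1qa and C1qb then overlapped between genotypes. A C1qc UMI was found in 28.1% of cKO and 29.0% of WT fibroblasts. At 1000 UMIs per cell it was 15.6% and 20.4%. The part of deep cells in the sums was not tested. Migratory dendritic cells (0.0481% of 8314 genes called) had 2 members above 0 and 5 below 0. The medians over all genes tested in these classes lay between -0.01 and 0.01. C1qb in plasmacytoid dendritic cells was at 45.4 and 29.1 CPM in cKO and at 63.6 and 126 CPM in WT (-1.40 ± 0.30, adjusted p 0.0820).

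In T cells, fibroblasts, plasmacytoid dendritic cells and B cells the mean level of macrophage markers lay on the same side as most members. Summed over 12 markers, all of them detected, they were at 843 and 892 CPM in cKO T cells and at 801 and 729 CPM in WT T cells. In the fibroblast class they were at 428 and 574 CPM in cKO and at 1171 and 769.9 CPM in WT, and in plasmacytoid dendritic cells at 124 and 169 CPM in cKO and at 307 and 512 CPM in WT. In B cells they were at 459 and 596 CPM in cKO and at 999 and 565 CPM in WT. In NK cells, where the median of the members was 0.39, the markers were at 517 and 651 CPM in cKO and at 742 and 476 CPM in WT, with no such parallel. It was absent too in cDC1, where 6 of 8 members were above 0 and the markers were at 330.3 and 378 CPM in cKO and at 422 and 480.4 CPM in WT, and in cDC2, where 7 of 8 members were above 0 and the markers were at 305 and 305 CPM in cKO and at 339 and 314 CPM in WT. In non-classical monocytes, where the median of the members was 0.40, the markers were at 1619.7 and 2083 CPM in cKO and at 1876 and 1823 CPM in WT. Markers and most members also shared a side in neutrophils, migratory dendritic cells and monocytes (marker log2 cKO over WT of 0.27, -0.18 and 0.08). In macrophages they did not: the markers were at -0.14, while 5 of 8 members were above 0. Markers of macrophages were present in each class that should lack C1q, and their part in the member values there was not tested.

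**Figure D5:**
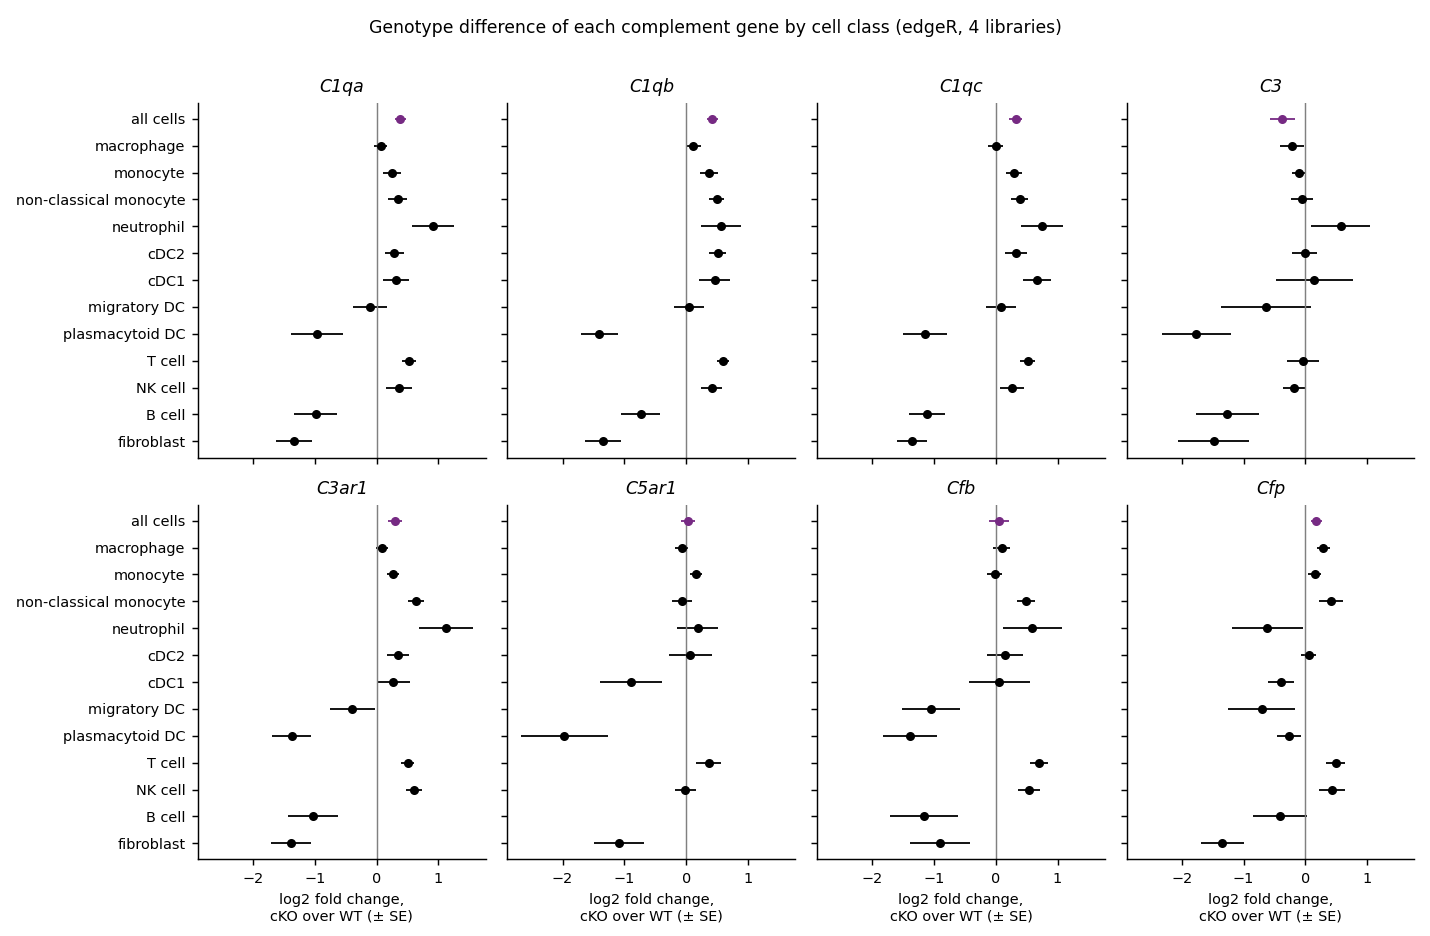
Log2 fold change of cKO over WT (horizontal axis, bars ± SE, edgeR on 2 cKO and 2 WT libraries) of each member, by class (vertical axis), with all cells of a library in purple. Members lie right of 0 in T cells and left of 0 in fibroblasts and plasmacytoid dendritic cells, C3 in T cells excepted, and no value passed the adjusted threshold.

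Summed over all cells of a library the members again did not pass (0% of 17870 genes called by edgeR), while DESeq2 called C1qa and C1qb. By edgeR 4 members and 992 of the 17870 genes had an unadjusted p under 0.05. C1qa was at 275 and 258 CPM in cKO libraries and at 208 and 197 CPM in WT libraries (0.39 ± 0.09, adjusted p 0.816). C1qb was at 505 and 510.1 CPM in cKO libraries and at 382 and 369.9 CPM in WT libraries (0.42 ± 0.09, adjusted p 0.816). Both genes were above every WT library in both cKO libraries, and so was the macrophage share of cells. In such sums more cells of a type and more RNA per cell cannot be told apart. C3 ran the other way, at 58.5 and 67.1 CPM in cKO libraries and at 97.5 and 65.1 CPM in WT libraries (-0.38 ± 0.20).

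A list of 47 other complement genes, receptors and regulators was read from the same fits. In macrophages 20 of them passed the filter on low counts, 13 above 0 and 7 below 0 with a median of 0.08, and none passed by edgeR (2 at an unadjusted p under 0.05). In monocytes 21 passed the filter, 12 above 0 and 9 below 0 with a median of 0.01, and none passed (1 at an unadjusted p under 0.05). The 5 with the most UMIs over all cells were Itgam, Calr, Itgb2, C1qbp and Itgax. Itgam, the alpha chain of complement receptor 3, averaged 625 CPM in cKO and 599.5 CPM in WT macrophages (0.06 ± 0.10), and 852 CPM in cKO and 794 CPM in WT monocytes (0.11 ± 0.12). Its partner Itgb2 averaged 329 CPM in cKO and 299 CPM in WT macrophages, and 442 CPM in cKO and 384 CPM in WT monocytes. Both chains of this receptor of cleaved C3 were thus at higher levels in monocytes, as was C3 itself.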

How the data were processed

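Libraries were made with a Chromium single-cell 3' kit, per the labels. Per the submitters' processing notes, Cell Ranger and STAR were used with build mm10, and no source used here gives versions. The authors deposited raw UMI counts, whole numbers per gene and cell, of filtered barcodes. Barcodes entered if they had 300 or more genes, 500 or more UMIs and a mitochondrial share of 15% or less. Clustering (scanpy 1.11.5, leidenalg 0.10.2) left complement genes out, and classes were named from marker lists; some naming details were set after clusters were seen. The automatic doublet caller marked no cell in any library, so cells of a high score and clusters of high median score were set apart as mixed droplets. Counts were summed per library and class (minimum 20 cells per library) or cluster (minimum 50). edgeR 4.0.16 (TMM, filterByExpr, quasi-likelihood) under R 4.3.3 tested cKO against WT, with p-values adjusted over all genes; DESeq2 1.42.0, a replicate block, another scaling, no filter, leaving out each library and other clusterings were alternatives. With 2 libraries against 2, an exact permutation test of 1 value cannot go below a two-sided p of 0.333, so none is given. The edgeR step was tested on simulated data. The members and lists were chosen with earlier results of these data known; named genes were the 8 members, the 5 most abundant other complement genes, any of these passing, and the genes most similar in pattern. Some genes that this rule picks are not reported here.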

Additional observations from a re-analysis of the deposited data

Results flagged for a closer look

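In the sums per class, C1qc differed between T cells and B cells in its genotype difference. The log2 difference of cKO and WT was larger in T cells than in B cells by 1.57 ± 0.20 (SE, edgeR interaction test, adjusted p 4.02e-05, where 0.963% of 12460 genes were called). C1qc was at 281 and 259.97 CPM in cKO T cells and at 214.5 and 169 CPM in WT T cells. In B cells it was at 49.97 and 61.1 CPM in cKO and at 172 and 76.0 CPM in WT. A C1qc UMI was found in 15.4% of cKO and 13.8% of WT B cells, the other direction. At the thinned depth it was 5.02% and 5.53%. Each B cell was also scaled to the same total and weighted equally. C1qc then averaged 0.437 and 0.617 in cKO and 0.742 and 0.677 in WT, a smaller gap. The part of single cells in the B cell sums was not tested. The 29 class pairs tested were those where a member's cKO libraries all lay above WT in one class and below WT in the other, and 70 member differences were tested in them. Of these, 40 passed adjusted over genes and 1, this one, also after adjusting over pairs. Among all genes, 0% were called for cDC1 against B cells and 1.46% for monocytes against fibroblasts. The pairs were picked by the directions of the members. These p-values are therefore too small, and the 40 is not read as a result about the members. Summed macrophage markers in the same cells, given above for T and B cells, moved in these directions too, and their part was not tested.

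Cells outside the class comparisons, though counted in the sums over all cells, also held C1q. The summed C1q level was 1372 ± 146 CPM in mixed droplets, which are cells with a high doublet score or in a cluster with a raised median score (1 such cluster gave 1532 of these cells), and 1499 ± 257 CPM in cells of unnamed clusters (SD over the 4 libraries), against 247 ± 148 CPM in B cells.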

How the results depend on the processing

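Under the alternatives 86 of 96 macrophage values, 92 of 96 monocyte values, 42 of 48 values over all cells and 30 of 32 class differences kept their direction and side of the threshold. Directions turned for C1qc in macrophages without the filter on low counts (7.7e-05) and at Leiden resolution 2 (0.0196), and for Cfb in monocytes with complement genes kept in the clustering (0.11). Leaving out 1 library gave, in macrophages, -0.0179 to 0.145 for C1qa, -0.124 to 0.108 for C1qc, -0.50 to 0.14 for C3, -0.185 to 0.0384 for C5ar1 and -0.0647 to 0.275 for Cfb; in monocytes, -0.230 to 0.0395 for C3 and -0.20 to 0.15 for Cfb; over all cells, -0.0795 to 0.146 for C5ar1 and -0.13 to 0.25 for Cfb; and for the class difference -0.26 to 0.10 for C3 and -0.0164 to 0.279 for Cfb. The cause was not tested.

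Over all cells DESeq2 called 2 members, C1qa and C1qb, against 0 by edgeR. Of the tests over all classes, against 0 by edgeR, DESeq2 called 8 and the replicate block 7. A fit with 1 library left out assumes that the lone library of a genotype varies like the others. Such fits called members whichever library was left out. Without WT-1 more genes were called than by the main fit in NK cells, T cells, plasmacytoid dendritic cells and non-classical monocytes. The member calls in these classes are therefore not read as particular to the members. The block and DESeq2 both called C1qa, C1qb and C1qc in T cells and in fibroblasts. Among all genes the block called 61 of 12830 in T cells and 134 of 11551 in fibroblasts, and DESeq2 called 50 and 215. In non-classical monocytes DESeq2 called 8 of 10310 genes. DESeq2 also called C3ar1 in fibroblasts and in non-classical monocytes, and the block C3ar1 in T cells. Of the 16 called without WT-1, 6 were in NK cells, 4 in T cells, 4 in plasmacytoid dendritic cells and 2 in non-classical monocytes. Among all genes, macrophage calls were 0 by edgeR, 3 with the block, 8 by DESeq2, 2 without the filter and 0 to 57 with 1 library left out. Monocyte calls were 1 by edgeR, 1 with the block, 31 by DESeq2, 124 without the filter and 3 to 111 with 1 library left out. Over all cells DESeq2 called 82 genes.

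Deviations of libraries with the same replicate number correlated at 0.087 in macrophages, 0.059 in T cells, -0.142 in monocytes and -0.174 in fibroblasts. With 2 libraries per genotype, such weak values cannot show whether the numbers pair the libraries. With the numbers crossed, an alternative chosen after seeing the data, 55 genes were called in monocytes and 1065 in fibroblasts, against 134 in fibroblasts with the block as numbered; 6 of the 8 members were called in fibroblasts with the numbers crossed, against 0 without a block and 3 with the block as numbered, and 0 in monocytes. The class with the highest level of each member was the same when cells were weighted equally. The C1qc gap between genotypes in fibroblasts was smaller with that weighting. Classes of few cells, neutrophils above all, limit the precision.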

Other observations

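A small class of mast cells or basophils, with 19 and 31 cells in cKO and 29 and 34 cells in WT libraries, was too few to enter the comparisons. Its C5ar1 level was 409.9 and 308 CPM in cKO and 350 and 457 CPM in WT, from 29 to 51 UMIs per library. C3ar1 was at 291 and 450.3 CPM in cKO and at 241 and 574 CPM in WT. Both receptors of the anaphylatoxins were thus measured in these cells, which are known to release mediators on contact with C3a and C5a. Its C1qa level was 26.4 and 92.5 CPM in cKO and 24.1 and 0 CPM in WT.

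Of the 47 other complement genes, 1 passed in a class other than macrophages and monocytes. Itgam, the alpha chain of complement receptor 3, was at 15.4 and 21.1 CPM in cKO plasmacytoid dendritic cells, against 69.0 and 64.5 CPM in WT (log2 fold change -1.79 ± 0.23 SE, edgeR adjusted p 0.00417, lower in 4 of 4 library pairs). Summed macrophage markers in the same cells were at 124 and 169 CPM in cKO and at 307 and 512 CPM in WT, and their part in this value was not tested.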
